A study of Mus musculus with 3 samples.

Results

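Transcripts of glycolysis and of the response to low oxygen were followed in NIH3T3 mouse fibroblasts left unstimulated or stimulated with GDF15 or TGF-β. The genes were taken by name from a list of 40 symbols for glucose and lactate transporters, glycolytic enzymes, the kinases that regulate them, and genes of the hypoxia response. Pairs of symbols for the same gene left 38 genes, of which 37 had a row among the 15554 protein-coding genes of the expression table. *Pfkfb3* was not analysed here.

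NIH3T3 cells are fibroblasts of an established line derived from mouse embryos. Cultures were kept in serum-free medium for 24 h and then for a further 24 h in serum-free medium alone (CTRL), with GDF15 at 100 ng/mL (GDF15), or with TGF-β at 4 ng/mL (TGF-β), and no source names a low-oxygen culture. Of the 3 RNA samples prepared per treatment a single pool was sequenced, so each treatment has 1 library and the spread between cultures is unknown. No test between treatments was therefore possible, and all changes below are differences between single libraries.

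Glycolysis turns glucose into pyruvate, and lactate dehydrogenase reduces pyruvate to lactate, which leaves the cell through monocarboxylate transporters. In low oxygen the transcription factor HIF, whose α subunits are otherwise marked for breakdown by prolyl hydroxylases, is stabilised and raises transcription of many glycolytic genes, of the pyruvate dehydrogenase kinase *Pdk1* and of genes such as *Vegfa*, *Car9* and *Bnip3*. Cultured fibroblasts are known to make lactate even with oxygen present.

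Values are FPKM, fragments per kilobase of transcript and per 1000000 mapped fragments, which allow levels of different genes to be compared per length. A change is the difference of log2(FPKM + 1) between libraries, a scale on which weakly expressed genes appear to change less than they did. The depth was estimated from the steps of the low values at 17000000 (CTRL), 19900000 (GDF15) and 16300000 fragments (TGF-β). Each ratio of FPKM has a 95% interval (exact binomial) for counting error only. Each change was placed among the 500 genes nearest in mean log2(FPKM + 1). Of the fibroblast markers, 10 of 11 averaged 1 FPKM or more, whereas none of the 5 epithelial, 3 endothelial or 4 muscle markers reached 1. Of 4 leukocyte markers *Cd68* and *Lyz2* did, and the pan-leukocyte gene *Ptprc* stayed at or below 0.148. The fibroblast markers did not move one way. In TGF-β the collagen genes *Col1a1* and *Col1a2* were over 1.5-fold higher, by 0.79 and 0.66, and *Dcn* and *Pdgfra* lower, with changes of -0.75 and -0.79. In GDF15 *Col1a1* and *Fn1* were higher, by 0.60 and 0.64, and *S100a4* lower, with a change of -0.59. Between the stimulated libraries *Dcn* and *Pdgfra* were lower in TGF-β, with changes of -0.71 and -0.79.

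In the TGF-β library most glycolytic transcripts were modestly higher than in CTRL, and the direction was split by isozyme. Of the 17 glycolysis and transport genes at a mean FPKM of 1 or more, 14 were higher and 3 lower in TGF-β, and their median change to CTRL was 0.31 against -0.07 for the 9226 genes of the table at that level. In GDF15, 11 were higher and 6 lower, with a median of 0.09 against -0.03. Of the 9226 genes, 3429 were higher in TGF-β and 4097 in GDF15. Under upper quartile scaling their median was 0.02 in GDF15 and -0.01 in TGF-β. The split of these genes by sign, also given below, therefore rests on the scaling. The 9 hypoxia response genes at that level had medians of 0.09 in GDF15 and 0.10 in TGF-β. The signs of *Aldoa* and *Gapdh* in GDF15 turned under some of the other scalings tried. These comparisons share the CTRL library, so they are not independent. In RNA of whole cultures, fewer cells with a transcript and less of it per cell cannot be told apart.

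Few of the changes were large. No gene of the list passed a 2-fold change in GDF15, where 0.289% of all genes did, and 1 did in TGF-β, *Car9*, where 0.913% of all genes did. At a 1.5-fold change, no member was higher in GDF15 (0.791% of all genes, and 1.27% of those at 1 FPKM or more on average) and 1, *Eno1*, was lower (1.02% and 1.55%). In TGF-β, 1 member, *Pfkp*, was over 1.5-fold higher (1.65% and 2.54%) and 3, *Pdk4*, *Adm* and *Car9*, were lower (1.95% and 3.06%). With the libraries scaled to a common upper quartile, members over 1.5-fold in TGF-β numbered 5 higher and 3 lower, as *Hk2*, *Pfkl*, *Pgk1* and *Ldha* were then also past that size. The same scaling turned the split over all genes from 123 higher and 158 lower to 153 and 108 in GDF15, and from 257 and 303 to 312 and 222 in TGF-β. Removal of the length trend left 135 higher and 47 lower in GDF15 and 329 and 194 in TGF-β, so the shares of lower genes given here rest on that choice. Between the stimulated libraries no member passed 2-fold (0.103% of all genes). *Eno1* was over 1.5-fold higher in TGF-β than in GDF15 (0.624% and 0.91%) and *Adm* was lower (0.399% and 0.629%).

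**Figure D1:**
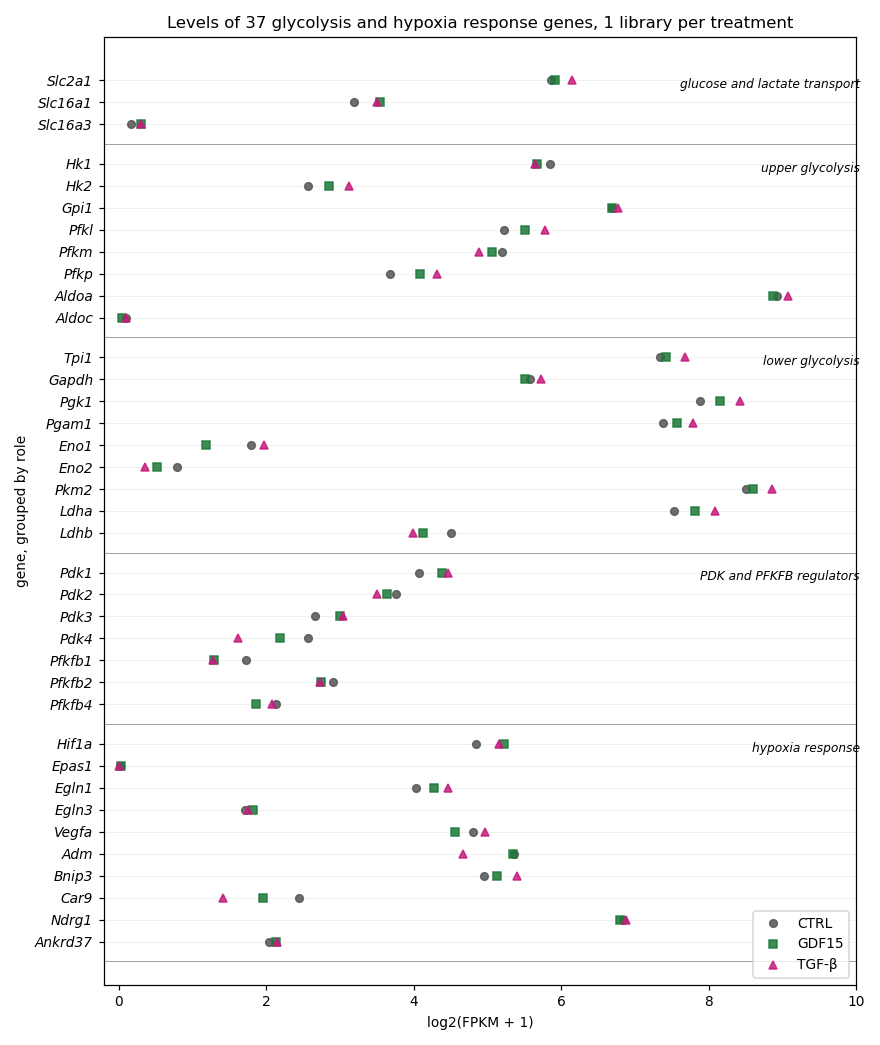
Level of each of the 37 genes in the 3 libraries as log2(FPKM + 1) on the horizontal axis, with genes in rows grouped by role, and 1 point per library. *Aldoa* and *Pkm2* sat highest, *Epas1*, *Aldoc* and *Slc16a3* lay near 0, and the distances between libraries were small beside the distances between genes.

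The promoters of the list were searched for the core of the HIF binding site, ACGTG or GCGTG on either strand, in RefSeq windows of 250 bases before to 50 bases after a gene start (GRCm38.p6). Windows were given for 35 of the 37 genes, and 32 of these (91.4%) held at least 1 core. The share was 70.7% of the 7391 genes of the table with a window and a mean FPKM of 1 or more, and 46.7% of all 27025 genes with a window. Counted by window, 41 of 54 (75.9%) against 43.8% of 32851 held a core, and a gene with several windows had more chances of a match. CACGTG, which holds ACGTG on both strands and therefore counts as 2 cores, was in 7 of the 54 windows (13%) and in 7.15% of all. A match of this length is a description of the letters and shows no binding.

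The sequences of 4 plus-strand promoters are printed 5′ to 3′ to set genes that were higher in TGF-β (*Ldha*, *Pgk1*) beside genes that were lower (*Car9*, *Adm*), with the cores on either strand in capitals. The windows are chr7:46845554-46845853 for *Ldha*, chrX:106186850-106187149 for *Pgk1*, chr4:43506776-43507075 for *Car9* and chr7:110627407-110627706 for *Adm*.
Ldha: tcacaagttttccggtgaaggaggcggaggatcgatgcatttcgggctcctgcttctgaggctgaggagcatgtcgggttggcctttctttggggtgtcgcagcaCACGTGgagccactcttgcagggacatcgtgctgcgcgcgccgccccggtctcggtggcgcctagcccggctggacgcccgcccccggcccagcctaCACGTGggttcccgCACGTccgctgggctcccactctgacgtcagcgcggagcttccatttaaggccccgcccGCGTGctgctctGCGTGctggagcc
Pgk1: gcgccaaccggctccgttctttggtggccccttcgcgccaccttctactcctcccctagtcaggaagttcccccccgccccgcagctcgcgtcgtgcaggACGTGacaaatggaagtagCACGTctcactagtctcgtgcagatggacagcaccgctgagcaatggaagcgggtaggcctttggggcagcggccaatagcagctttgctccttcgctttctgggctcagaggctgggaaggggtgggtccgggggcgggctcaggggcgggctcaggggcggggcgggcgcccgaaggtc
Car9: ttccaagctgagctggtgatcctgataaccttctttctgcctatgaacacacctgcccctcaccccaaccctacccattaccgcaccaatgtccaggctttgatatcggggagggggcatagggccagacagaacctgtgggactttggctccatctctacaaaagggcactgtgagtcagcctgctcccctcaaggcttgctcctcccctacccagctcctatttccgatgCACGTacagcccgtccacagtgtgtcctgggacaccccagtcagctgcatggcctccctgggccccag
Adm: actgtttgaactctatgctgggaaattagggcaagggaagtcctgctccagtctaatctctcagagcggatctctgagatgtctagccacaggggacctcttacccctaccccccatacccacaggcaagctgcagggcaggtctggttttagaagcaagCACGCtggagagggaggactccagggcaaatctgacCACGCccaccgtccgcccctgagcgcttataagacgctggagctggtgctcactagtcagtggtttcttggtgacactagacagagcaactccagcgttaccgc
This *Ldha* window held 7 cores, the *Pgk1* and *Adm* windows 2 each and the *Car9* window 1. Cores therefore stood both in promoters of genes that were higher and in promoters of genes that were lower in the TGF-β library.

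Of the transporters, *Slc2a1* and *Slc16a1* had appreciable levels. *Slc2a1*, the GLUT1 glucose transporter, was at 57.0 FPKM (CTRL), 59.4 FPKM (GDF15) and 69.5 FPKM (TGF-β). The TGF-β level was 1.22 times that of CTRL (counting interval 1.16 to 1.28), and that change was higher than that of 90.4% of the near genes. *Slc16a1*, the lactate transporter MCT1, was at 8.16, 10.6 and 10.3 FPKM in the same order, so both stimulated libraries lay above CTRL, by 0.35 and 0.31 on the log2 scale. Its ratio to CTRL was 1.31 in GDF15 (1.18 to 1.45) and 1.27 in TGF-β (1.14 to 1.41), and its rank among the near genes in GDF15 was 94.2%. *Slc16a3*, the MCT4 exporter often found in strongly glycolytic cells, was nearly silent, at 0.122, 0.231 and 0.231 FPKM, or an estimated 9.03, 19.9 and 16.3 fragments.

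At the entry to the pathway the hexokinases split. *Hk1*, the housekeeping hexokinase of most tissues, was at 56.4 FPKM (CTRL), 50.1 FPKM (GDF15) and 49.0 FPKM (TGF-β). *Hk2*, the inducible hexokinase of muscle and many tumours, was at 4.94, 6.20 and 7.75 FPKM. Thus *Hk1* was highest and *Hk2* lowest in CTRL. *Hk2* in TGF-β was 1.57 times its CTRL level (1.39 to 1.77), a change of 0.56 that exceeded 97.4% of the near genes, and in GDF15 it was 1.25 times that level (1.11 to 1.42). The ratio of *Hk2* to *Hk1* was 1.41 times that of CTRL in GDF15 (1.25 to 1.60) and 1.81 times in TGF-β (1.59 to 2.05). This pair and the isozyme pairs below were chosen after the values were seen, so their ratios only describe a split. *Hk2* still made up 13.6% of the summed hexokinase FPKM in TGF-β, against 8.05% in CTRL. That sum was highest in CTRL, at 61.3 FPKM, against 56.3 FPKM in GDF15 and 56.7 FPKM in TGF-β. *Gpi1*, which converts glucose 6-phosphate to fructose 6-phosphate, was the flattest enzyme, at 102.0, 102.1 and 108.5 FPKM.

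Phosphofructokinase, the committed step of glycolysis, also divided by isozyme. *Pfkp* (chr13:6579768-6648777, minus strand, mm10), the platelet-type subunit, was at 11.8 FPKM (CTRL), 16 FPKM (GDF15) and 19.0 FPKM (TGF-β). On the log2(FPKM + 1) scale it had the highest change of the list in both stimulated libraries. The changes were 0.41 in GDF15 and 0.64 in TGF-β, above 97.6% and 98.0% of near genes. Over the other settings tried, the nearly silent *Slc16a3* reached 0.92 in each, and *Pfkp* at most 0.46 and 0.71. The ratio of *Pfkp* to its CTRL level was 1.36 in GDF15 (1.24 to 1.48) and 1.61 in TGF-β (1.47 to 1.76). *Pfkl*, the liver-type subunit, followed the same order at 36.2, 44.7 and 53.9 FPKM, and its TGF-β level was 1.49 times that of CTRL (1.41 to 1.57), with a change of 0.56 above 97.4% of near genes. *Pfkm*, the muscle-type subunit, took the opposite order at 35.5, 32.3 and 28.6 FPKM. Its TGF-β level was 0.806 times that of CTRL (0.750 to 0.866), a change of -0.30 that was -0.19 with length and GC trends removed. *Pfkl* and *Pfkm* were close to equal in CTRL, and their shares of the summed FPKM separated, from 43.4% and 42.5% in CTRL to 53.1% and 28.2% in TGF-β. The ratio of *Pfkp* to *Pfkm* was 1.49 times that of CTRL in GDF15 (1.34 to 1.66) and 2 times in TGF-β (1.78 to 2.23). Summed over the 3 genes the step was at 83.6, 93.0 and 101.5 FPKM.

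*Aldoa*, the aldolase of muscle and most cultured cells, had the highest FPKM of the list. It was at 484 FPKM (CTRL), 466 FPKM (GDF15) and 535 FPKM (TGF-β), and the ratio to CTRL was 0.962 in GDF15 (0.940 to 0.986) and 1.11 in TGF-β (1.08 to 1.13). The direction in GDF15 was the opposite, with a change of up to 0.16, after upper quartile scaling or after a trend with expression, length or GC content was removed. *Aldoc*, the brain aldolase, was at most 0.0747 FPKM, with an estimated 3.38, 1.70 and 3.38 fragments, so no change was detectable at this depth.

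Between triose phosphate and lactate, the abundant enzymes mostly kept the order CTRL, GDF15, TGF-β from low to high. *Tpi1*, which interconverts the triose phosphates, was at 160.5, 170.5 and 203 FPKM in that order. *Pgk1* (chrX:106187100-106203699, plus strand), which makes the first ATP of the pathway, was at 235, 282 and 341 FPKM. *Pgam1*, the phosphoglycerate mutase, was at 166, 189 and 219 FPKM. All 3 were lowest in CTRL and highest in TGF-β, with TGF-β changes of 0.34, 0.53 and 0.40, and that of *Tpi1* was 0.51 with length and GC trends removed. *Pgk1* was 1.20 times its CTRL level in GDF15 (1.16 to 1.24) and 1.45 times in TGF-β (1.41 to 1.49), the latter above 93.6% of near genes. *Pkm2*, the row for pyruvate kinase M, was at 362, 388 and 464 FPKM, and its ratio to CTRL was 1.07 in GDF15 (1.05 to 1.09) and 1.28 in TGF-β (1.26 to 1.31). A gene-level value cannot separate its M1 and M2 splice forms. *Aldoa*, *Pkm2* and *Pgk1* had the 3 highest mean FPKM values of the list.

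*Gapdh* and *Eno1*, normally among the most abundant glycolytic transcripts, stood low beside these neighbours. *Gapdh*, the glyceraldehyde phosphate dehydrogenase, was at 46.9 FPKM (CTRL), 44.5 FPKM (GDF15) and 52.1 FPKM (TGF-β). *Eno1* (chr4:150236721-150248879, plus strand), the main enolase of non-neural cells, was at only 2.46, 1.26 and 2.93 FPKM, or an estimated 84.8, 51 and 96.4 fragments. *Eno3*, an enolase gene outside the list, stood higher, at 19.1, 15.8 and 15.9 FPKM. Its change to CTRL was -0.25 in GDF15 and -0.25 in TGF-β. For *Gapdh*, 84.2% of the 50-base windows of its transcript matched, with at most 2 mismatches, a transcript of another gene, and 321 of the 333 genes matched were pseudogenes. For *Eno1* the share was 85.3%, with 12 pseudogenes among 13 genes. Windows that matched over 20 other genes made up 69.5% of those of *Gapdh* and 0% of those of *Eno1*. How reads with several matches were counted is not given in the sources used here, and the part of such reads in the low values was not tested.

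On the log2(FPKM + 1) scale, the largest change of the list in GDF15 was in *Eno1*. Without the 1 added to FPKM, that of *Aldoc*, near 0 FPKM, was larger, at -1.22 against -0.96. The GDF15 level of *Eno1* was 0.514 times that of CTRL (0.355 to 0.734), a change of -0.61 below all but 1.2% of near genes. That change was no longer past 1.5-fold under upper quartile scaling or after a length trend was removed. In TGF-β the gene was 1.19 times its CTRL level (0.874 to 1.60), an interval that holds 1, and TGF-β was 2.32 times GDF15 (1.63 to 3.31). Hence only the GDF15 library stood apart, on the thinnest counts among the members past 1.5-fold. *Eno2*, the neuronal enolase, was under 1 FPKM, at 0.726, 0.434 and 0.277.

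**Figure D2:**
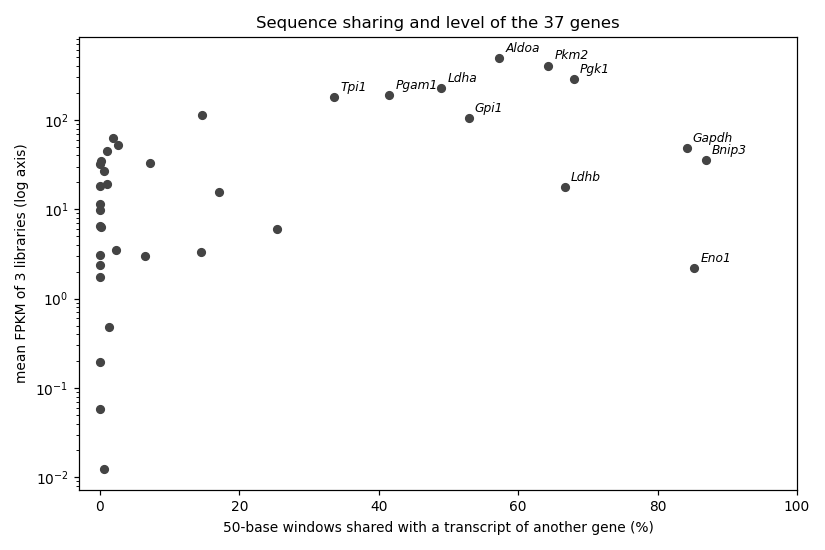
Percent of 50-base transcript windows shared with a transcript of another gene (horizontal axis) against mean FPKM of the 3 libraries (vertical log axis) for the 37 genes, with 1 point per gene and names for those with over 30% shared. *Gapdh*, *Eno1* and *Bnip3* had the highest shares, 84.2%, 85.3% and 86.9%, and *Pgk1* had 68.0% at a mean level far above that of *Eno1*.

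Lactate dehydrogenase divided by isozyme, as hexokinase and phosphofructokinase did, in a pair chosen after the values were seen. *Ldha* (chr7:46841475-46855627, plus strand), whose subunit favours lactate formation, was at 183 FPKM (CTRL), 224 FPKM (GDF15) and 271 FPKM (TGF-β). *Ldhb*, the heart-type subunit that favours pyruvate formation, was at 21.7, 16.5 and 14.9 FPKM. In both stimulated libraries *Ldha* was above CTRL and *Ldhb* below it. *Ldha* was 1.22 times its CTRL level in GDF15 (1.18 to 1.26) and 1.48 times in TGF-β (1.43 to 1.53), a change of 0.56 above 94.2% of near genes. *Ldhb* was 0.761 times in GDF15 (0.666 to 0.868) and 0.687 times in TGF-β (0.595 to 0.795), a change of -0.51 below all but 3.6% of near genes. *Ldhb* is a short transcript of 1304 bases, and its changes were smaller with the length trend removed, -0.19 and -0.35, and with length and GC trends removed, -0.15 and -0.34. The ratio of *Ldha* to *Ldhb* thus went from 8.46 (CTRL) to 13.6 (GDF15) and 18.2 (TGF-β), or 1.61 times (1.40 to 1.84) and 2.15 times (1.86 to 2.49) the CTRL ratio. Of the *Ldhb* windows, 66.7% were shared with a pseudogene, against 49.0% of the *Ldha* windows with other genes.

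**Figure D3:**
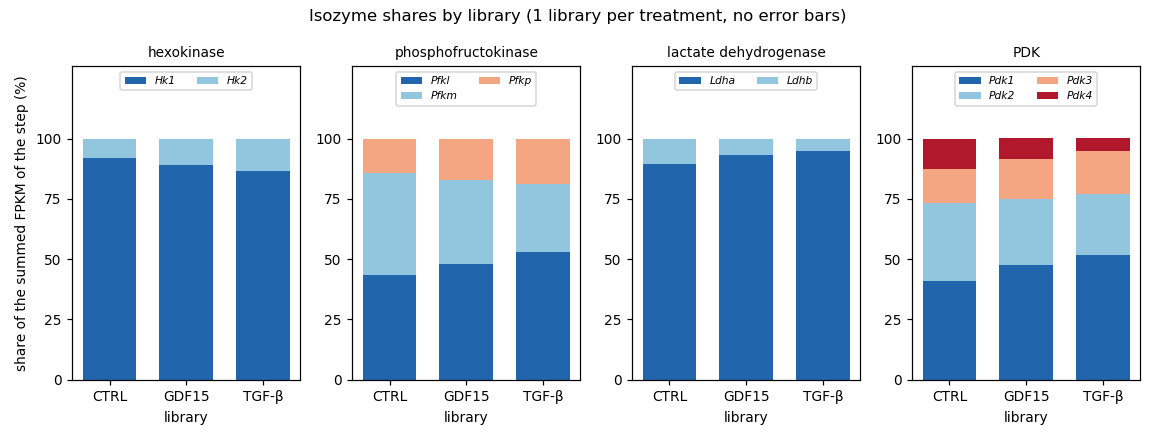
Share of each isozyme in the summed FPKM of its step (vertical axis, percent, from 0) in the 3 libraries (bars, 1 library each, no error bars). From CTRL to TGF-β the shares of *Hk2* (8.05% to 13.6%), *Pfkl* (43.4% to 53.1%), *Ldha* (89.4% to 94.8%) and *Pdk1* (40.8% to 51.8%) were larger and those of *Pfkm*, *Ldhb* and *Pdk4* smaller, with GDF15 between.

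The pyruvate dehydrogenase kinases phosphorylate and inactivate pyruvate dehydrogenase, which lets pyruvate into the mitochondrial cycle. *Pdk1*, the HIF-responsive kinase, was at 15.8 FPKM (CTRL), 19.9 FPKM (GDF15) and 21.1 FPKM (TGF-β), and *Pdk3* was at 5.35, 7.04 and 7.23 FPKM. *Pdk2*, a widely expressed kinase, was at 12.6, 11.5 and 10.3 FPKM. *Pdk4* (chr6:5483351-5496309, minus strand), the kinase induced by fasting and fatty acids, was at 4.91, 3.57 and 2.07 FPKM. So the family split into *Pdk1* and *Pdk3*, lowest in CTRL, and *Pdk2* and *Pdk4*, highest in CTRL. *Pdk4* was 0.726 times its CTRL level in GDF15 (0.612 to 0.866) and 0.421 times in TGF-β (0.337 to 0.524), with changes of -0.37 and -0.95, below all but 7.4% and 1.6% of near genes. Directly, TGF-β was 0.580 times GDF15 (0.460 to 0.723), with 1.2% of near genes lower. *Pdk1* was 1.27 times in GDF15 (1.18 to 1.36) and 1.34 times in TGF-β (1.25 to 1.44). The ratio of *Pdk1* to *Pdk4*, a pair chosen after the values were seen, went from 3.21 to 5.59 and 10.2. This is 1.74 times (1.45 to 2.09) and 3.18 times (2.54 to 3.99) that of CTRL. The summed level of the 4 kinases hardly differed, at 38.6, 42.0 and 40.7 FPKM.

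The PFKFB enzymes make and remove fructose 2,6-bisphosphate, the activator of phosphofructokinase. *Pfkfb1*, the liver-type enzyme, was at 2.32, 1.45 and 1.44 FPKM, *Pfkfb2*, the heart-type enzyme, at 6.51, 5.72 and 5.62 FPKM, and *Pfkfb4*, the testis-type enzyme, at 3.38, 2.64 and 3.21 FPKM in CTRL, GDF15 and TGF-β. Each was highest in CTRL. *Pfkfb1* was 0.624 times its CTRL level in GDF15 (0.431 to 0.898) and 0.620 times in TGF-β (0.419 to 0.917), from an estimated 43.8 to 74.0 fragments. The 7 kinases and PFKFB enzymes together had a median change of -0.16 in GDF15 and -0.18 in TGF-β, against -0.03 and -0.07 for all genes at a mean FPKM of 1 or more. In each library 2 were higher and 5 lower, a split near that of all those genes, of which 5129 of 9226 were lower in GDF15 and 5797 in TGF-β, although the sign of *Pdk2* in GDF15 and that of *Pfkfb4* in TGF-β turned when trends with length and GC content were removed.

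Of the oxygen-sensing genes, *Hif1a*, the α subunit of HIF1, was at 27.8 FPKM (CTRL), 36.4 FPKM (GDF15) and 34.6 FPKM (TGF-β). Its ratio to CTRL was 1.31 in GDF15 (1.24 to 1.38), a change of 0.38 above 95.2% of near genes, and 1.24 in TGF-β (1.18 to 1.32), above 91.8%. With length and GC trends removed, the GDF15 change was 0.21. The HIF1α protein is controlled mainly by its stability, which these data do not measure. *Epas1*, the α subunit of HIF2, was at 0.0104 and 0.0267 FPKM in CTRL and GDF15 and listed at 0 in TGF-β, at or under the floor of 3 fragments in each library, so no fold was taken. *Egln1*, the main HIF prolyl hydroxylase, was at 15.3, 18.4 and 21.1 FPKM, and its TGF-β level was 1.38 times that of CTRL (1.27 to 1.5), above 96.2% of near genes. *Egln3*, a hydroxylase that is itself a HIF target, was at 2.27, 2.54 and 2.38 FPKM, with counting intervals of both ratios that held 1.

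The HIF target genes of the list went in different directions. *Car9* (chr4:43506966-43513729, plus strand), a membrane carbonic anhydrase that handles extracellular acid, was at 4.44 FPKM (CTRL), 2.87 FPKM (GDF15) and 1.66 FPKM (TGF-β), or an estimated 153, 116 and 54.5 fragments. It was thus highest in CTRL and lowest in TGF-β, the order opposite to *Pgk1* and *Ldha*. Its ratio to CTRL was 0.646 in GDF15 (0.505 to 0.830) and 0.374 in TGF-β (0.272 to 0.516), with changes of -0.49 and -1.03, below all but 3.0% and 1.2% of near genes. TGF-β was 0.578 times GDF15 (0.414 to 0.808). The TGF-β change lay just past 2-fold and was between -0.87 and -1.42 over the other settings tried, inside 2-fold in those that rescaled the libraries or removed a trend.

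*Adm* (chr7:110627661-110629820, plus strand), the vasodilator peptide adrenomedullin, was at 40.1 FPKM (CTRL), 39.7 FPKM (GDF15) and 24.4 FPKM (TGF-β). Only TGF-β stood apart, at 0.610 times CTRL (0.548 to 0.678) and 0.615 times GDF15 (0.554 to 0.682). The changes of -0.69 and -0.68 were below all but 1.6% and 0.2% of near genes. The change against CTRL was inside 1.5-fold after removal of a length trend (-0.53) or of length and GC trends (-0.50). *Vegfa*, the main angiogenic factor, was at 27.0, 22.6 and 30.2 FPKM, lowest in GDF15. Its ratio to CTRL was 0.836 in GDF15 (0.779 to 0.897) and 1.12 in TGF-β (1.04 to 1.20), and TGF-β was 1.34 times GDF15 (1.25 to 1.43), a change of 0.40 above 98.8% of near genes.

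*Bnip3*, a mitophagy receptor, was at 30.03 FPKM (CTRL), 34.1 FPKM (GDF15) and 41.3 FPKM (TGF-β). Its TGF-β level was 1.38 times that of CTRL (1.26 to 1.5), with a change above 95.6% of near genes and with 86.9% of its windows shared with other genes. *Ndrg1*, a stress- and hypoxia-responsive gene, was abundant and nearly level at 113, 110 and 117 FPKM, and the sign of its small GDF15 change depended on the scaling. *Ankrd37*, a short HIF target transcript, was at 3.13, 3.40 and 3.44 FPKM, with intervals that held 1. At 927 bases it is the shortest member, and its GDF15 change of 0.09 was 0.37 with the length trend removed and 0.39 with length and GC trends removed. Among the targets, then, *Bnip3* followed the glycolytic enzymes, *Car9* and *Adm* did not, and *Vegfa* differed mainly between the stimulated libraries.

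**Figure D4:**
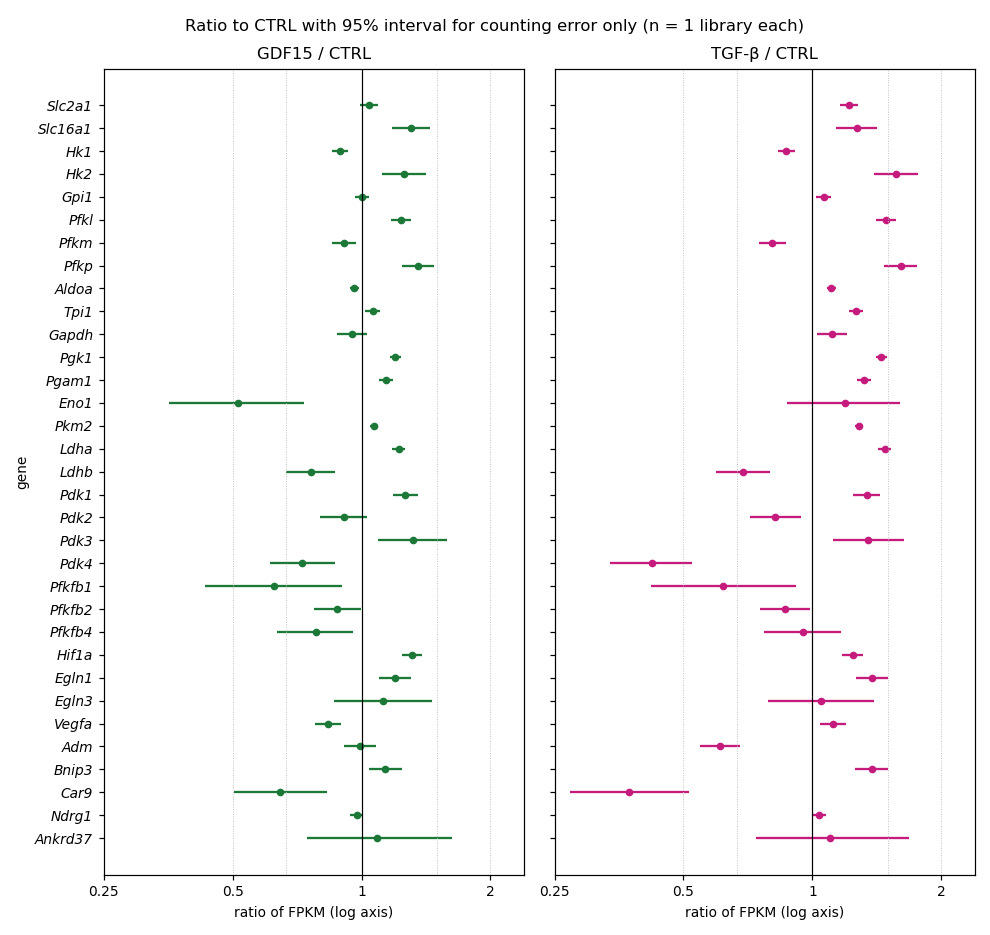
Ratio of FPKM to CTRL (horizontal log axis, ratio of 1 marked by a solid line and 1.5-fold and 2-fold by dotted lines) for the 33 genes at a mean FPKM of 1 or more, GDF15 on the left and TGF-β on the right, with bars for the 95% interval of counting error only. *Car9* and *Pdk4* lay furthest left in TGF-β, at 0.374 and 0.421, *Pfkp* furthest right at 1.61, and *Eno1* furthest left in GDF15 at 0.514.

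Over the 33 genes at a mean FPKM of 1 or more, the order CTRL, GDF15, TGF-β from low to high was held by 15 (45.5%), against 1260 of the 9226 genes at that level (13.7%). The reverse order was held by 9 (27.3%), against 29.6%, and the other orders by 9 (27.3%), against 56.8%. The 15 were *Slc2a1*, *Hk2*, *Gpi1*, *Pfkl*, *Pfkp*, *Tpi1*, *Pgk1*, *Pgam1*, *Pkm2*, *Ldha*, *Pdk1*, *Pdk3*, *Egln1*, *Bnip3* and *Ankrd37*. The 9 in reverse order were *Hk1*, *Pfkm*, *Ldhb*, *Pdk2*, *Pdk4*, *Pfkfb1*, *Pfkfb2*, *Adm* and *Car9*. Several neighbours in these orders were closer than counting error, as for *Gpi1*, *Slc2a1*, *Ankrd37* and *Adm* between CTRL and GDF15. The GDF15 change of *Adm*, -0.01, was up to 0.19 under the other settings tried. Against the genes of like level, 13 members were above the 90th percentile of change in TGF-β and 5 below the 10th, and 7 and 5 in GDF15.

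**Figure D5:**
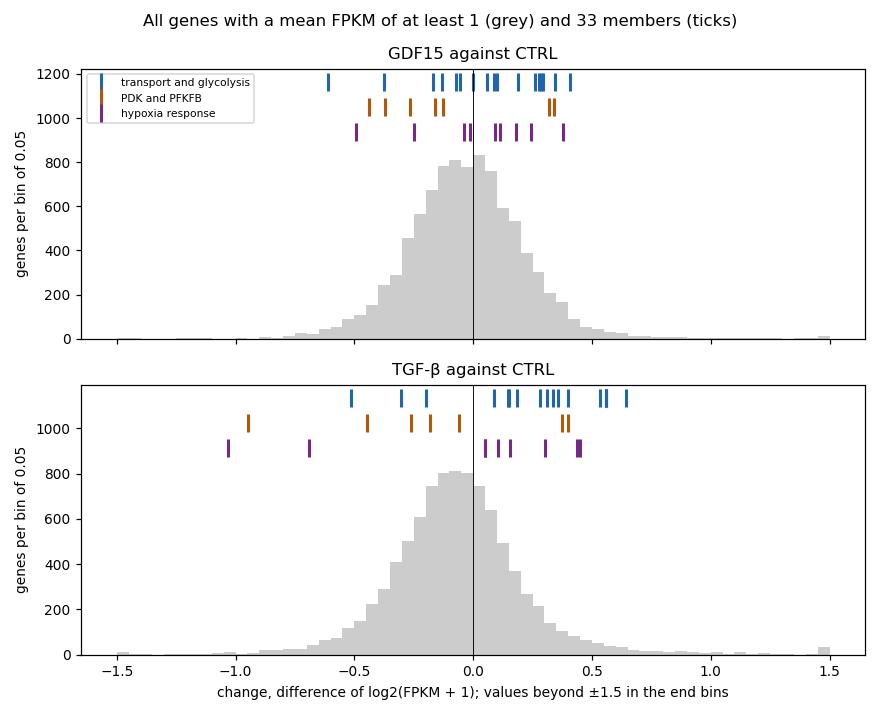
Number of genes (vertical axis) per bin of 0.05 in the difference of log2(FPKM + 1) to CTRL (horizontal axis) for all 9226 genes at a mean FPKM of 1 or more in grey, GDF15 above and TGF-β below, with a tick for each of the 33 members by role. In TGF-β 14 of 17 ticks of transport and glycolysis lie right of 0, and 5 of 7 of the PDK and PFKFB genes lie left of 0, as do 5797 of the 9226 genes.

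Transcript length moved with the GDF15 change. Over genes of 800 to 2000 bases the median change was -0.17 and over those of 4000 to 8000 bases 0.06. The 11 members of 800 to 2000 bases had a median of 0.09 in GDF15 and 0.15 in TGF-β, where all genes of that length had -0.17 and -0.15. The 15 members of 2000 to 4000 bases had medians of -0.04 and 0.09, against -0.04 and -0.08. In GDF15 these 15 therefore did not differ from all genes of that length. For the 7 members of 4000 to 8000 bases, *Pfkp* and *Hk2* among them, the medians were 0.32 and 0.31, against 0.06 and -0.02. With length and GC trends removed, the isozyme ratios stayed on the same side of CTRL, but some were smaller in GDF15. On the log2 scale, the GDF15 change of the ratio of *Pdk1* to *Pdk2* went from 0.48 to 0.24, that of *Pfkp* to *Pfkm* from 0.57 to 0.42 and that of *Ldha* to *Ldhb* from 0.68 to 0.59. In TGF-β the change for *Ldha* to *Ldhb* went from 1.10 to 1.07.

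Genes of neighbouring routes of glucose carbon stayed within 1.5-fold, apart from *Pck2*. Of 15 genes of the TCA cycle at a mean FPKM of 1 or more, 11 were lower in GDF15 and 14 in TGF-β, with medians of -0.10 and -0.15 and none past 1.5-fold. Over all genes at that level 5129 of 9226 were lower in GDF15 and 5797 in TGF-β, with medians of -0.03 and -0.07. The 9 genes of pyruvate entry into mitochondria had medians of -0.02 and -0.05, and the 8 of the pentose phosphate pathway -0.15 and -0.03, again with none past 1.5-fold. Among 14 other isozymes and glycolysis-linked genes the medians were -0.02 and -0.01, and *Pck2*, the mitochondrial PEP carboxykinase, at 14.0, 17.6 and 23.7 FPKM, was the 1 gene past that size, with a TGF-β change of 0.72.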

How the data were processed

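The data were 1 table of FPKM values for 15554 genes in 3 NIH3T3 libraries. The authors pooled the RNA of each treatment, prepared stranded mRNA libraries, sequenced 50-base single-end reads, calculated the deposited FPKM in Cufflinks, and restricted the table to protein-coding genes with a reviewed UniProt entry. The submitters' processing notes name TopHat 1.3.2, Bowtie 0.12.9, Cufflinks 2.0.2 and mm10. The annotation and the settings for reads with several matches are not given in the sources used here. The column headers number the cell line upward, so columns were matched to samples by treatment.

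Changes were differences of log2(FPKM + 1), computed with Python 3.11.15, numpy 2.4.6, pandas 2.3.3 and scipy 1.17.1, with plots by matplotlib 3.10.9. With 1 library per treatment no p-value was computed. Counts used the study's 2-fold criterion and a smaller 1.5-fold size, beside all genes or those with a mean FPKM of at least 1. Depth came from the lowest step of FPKM multiplied by length for single-transcript genes of at least 1500 bases, and it gave the estimated fragments, the exact 95% binomial interval of each ratio and the floor of 3 fragments. Intervals cover counting error only. Lengths, GC content and gene coordinates came from GENCODE vM21 (GRCm38), to which 15471 rows could be joined (14725 on the symbol itself, 746 on an older one). Shared windows of 50 bases with at most 2 mismatches were found with BLAST 2.17.0, and promoters came from RefSeq (GRCm38.p6). The changes, depth estimates and intervals were tested on simulated data.

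Every member is named. Ratios, intervals or ranks among near genes are given mainly for members past 1.5-fold and the 3 of highest mean FPKM. They are also given for most of the 3 largest changes each way per comparison. Genes of other lists are named where past 1.5-fold, at most 3 each way per list. *Eno3*, *Cd68*, *Lyz2* and *Ptprc* are named for their levels. The members and lists were chosen with earlier results of these data known. The isozyme pairs and the alternatives on shared windows and on isozyme length were chosen after seeing the values. The alternatives were pseudocounts of 0.5, 0.1 and none, a minimum mean FPKM of 1, upper quartile scaling, and removal of running trends with expression, length, or length and GC content.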

Additional observations from a re-analysis of the deposited data

How the results depend on the processing

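No median of the glycolysis and transport or hypoxia response genes changed sign under the settings tried, apart from the hypoxia median between the stimulated libraries, which lay between -0.04 and 0.02. Members over 1.5-fold in GDF15 numbered 1 and became 4 with a pseudocount of 0.1, 6 with none, and 0 with upper quartile scaling, with the length trend removed or with length and GC trends removed. In TGF-β the 4 became 6 with a pseudocount of 0.5, 7 with 0.1, 8 with none, 8 with upper quartile scaling, 8 with the expression trend removed, and 7 with the length trend or with length and GC trends removed. Between the stimulated libraries the 2 became 4 with a pseudocount of 0.5 or 0.1 and 6 with none. Members over 2-fold in GDF15 went from 0 to 1 without a pseudocount. In TGF-β the 1 became 2 with a pseudocount of 0.5, 3 with 0.1 or none, and 0 with upper quartile scaling or with the expression, length, or length and GC trends removed. Between the stimulated libraries the 0 became 1 with a pseudocount of 0.1 and 2 with none. Over all genes of the table, those over 1.5-fold went from 123 higher and 158 lower to 447 and 652 in GDF15 with a pseudocount of 0.1 and 575 and 758 with none, and from 257 and 303 to 650 and 894, and 736 and 966, in TGF-β. A smaller pseudocount enlarges the change of low genes by construction, and the cause of the other shifts was not tested. The median of the glycolysis and transport genes lay between 0.07 and 0.17 in GDF15, 0.23 and 0.36 in TGF-β and 0.17 and 0.23 between them, and that of the hypoxia response genes between 0.02 and 0.18 in GDF15 and 0.05 and 0.19 in TGF-β. These ranges include leaving out the 8 members with over 50% of shared windows, an alternative chosen after seeing the data, as were those on isozyme length. Of 132 changes of members and isozyme pairs, 16 had a sign that differed under some setting. No paired analysis was possible because 1 library was made per treatment, and for the same reason no replicate could be left out. Depth limits *Epas1*, *Aldoc* and *Slc16a3*, with under 20 estimated fragments in each library.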

Other observations

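Of 31 hypoxia-responsive genes outside the list with a mean FPKM of at least 1, 18 were higher and 13 lower in TGF-β. In GDF15, 23 were higher and 8 lower. Over the 9226 genes at that level, 3429 were higher and 5797 lower in TGF-β, and 4097 and 5129 in GDF15. Of the 31, 6 were over 1.5-fold higher and 2 lower in TGF-β than in CTRL, and 1 was higher in GDF15. Of all genes at that level, 2.54% were over 1.5-fold higher and 3.06% lower in TGF-β, and 1.27% higher in GDF15, so the 2 lower genes and the 1 higher in GDF15 are near the background. *Tfrc*, the transferrin receptor, was at 7.40 FPKM (CTRL), 13.1 FPKM (GDF15) and 15.9 FPKM (TGF-β), with changes of 0.74 and 1.01. *Higd1a*, a mitochondrial protein induced by hypoxia, was at 16, 19.97 and 31.3 FPKM, and *Bhlhe40*, a basic helix-loop-helix repressor, was at 18.5, 23.6 and 35.0 FPKM. *Angptl4*, an inhibitor of lipoprotein lipase, was at 77.8, 52.5 and 27.5 FPKM, with a TGF-β change of -1.47, the lowest of that list. *Selenbp1*, a selenium-binding protein, was at 6.06, 4.59 and 3.38 FPKM. Both of these were, like *Car9* and *Pdk4*, highest in CTRL.

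Among 8 genes of the HIF subunits and oxygen sensing at that level the medians were 0.08 in GDF15 and 0.02 in TGF-β. *Arnt2*, a partner of HIF α subunits, was at 0.664, 0.823 and 1.83 FPKM, with a TGF-β change of 0.77. It reached a mean of 1 FPKM only through the TGF-β library, where it is high, so its place among the 8 is no support for a change. None of the others passed 1.5-fold. In a list of 5 glucose and energy sensing genes, with medians of -0.13 and 0.00, *Txnip*, a glucose-induced inhibitor of glucose uptake, was at 148.8, 125.6 and 88.1 FPKM. Its TGF-β change was -0.75. These lists were chosen with results of the data known, and each value rests on 1 library.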
